A study of Homo sapiens with 27 samples.

Results

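The genes described here are 10 regulators of blood stem cells and of the erythroid and megakaryocytic lineages: GATA1, GATA2, TAL1, LMO2, LYL1, GFI1B, NFE2, KLF1, MYB and CD34. They were taken by symbol, and the set was chosen with earlier results of these data known. All 10 were found among the 57992 gene rows of the table. RNA was sequenced from 3 human acute myeloid leukaemia cell lines, each infected with a constitutive lentiviral short hairpin RNA and collected 3 days later. Each line had 3 libraries with CARM1 hairpin 1, 3 with CARM1 hairpin 2 and 3 with a scrambled hairpin, called scramble here, which makes 9 groups and 27 libraries. CARM1, also named PRMT4, is an arginine methyltransferase of histones and transcriptional coactivators, and the question was what its loss does to leukaemia cells. SKNO1, which carries the RUNX1-RUNX1T1 fusion of core-binding-factor leukaemia, was grown with 10 ng/mL GM-CSF in every group. MOLM13 (MOLM-13 in the labels) and MV411, both of monocytic type, carry a fusion of KMT2A and an internal tandem duplication of FLT3, and had no supplement listed. Every group was infected with virus, no uninfected cells were included, and the RUNX1-RUNX1T1 genotype was present as 1 line. No label says whether replicates were separate cultures, so p-values measure the spread between these samples, which may be technical.

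In blood stem cells, GATA2, the basic helix-loop-helix factors TAL1 and LYL1, and the bridging protein LMO2 bind DNA together in multi-subunit complexes at GATA and E-box sites. During erythroid and megakaryocytic maturation GATA1 takes the place of GATA2, and KLF1, NFE2 and GFI1B act with it on globin, haem and platelet genes. MYB keeps progenitors dividing and is required by many leukaemias with a KMT2A fusion, and CD34 is the surface sialomucin used to isolate stem and progenitor cells.

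Promoter windows of 300 bases, mostly before the start of transcription, were taken from RefSeq (GRCh38.p14) for the 8 members its table held, in 11 windows. Both strands were searched for the GATA words, which are AGATAA or TGATAA and, with another last letter, AGATAG or TGATAG. At least 1 of these words stood in a window of 4 of the 8 members (TAL1, LYL1, GFI1B and KLF1), which makes 5 of their 11 windows, and in 25% of 35116 promoters of the same length. The windows of GATA1, GATA2, MYB and CD34 held none of these letters. The E-box CANNTG, which 68.7% of promoters held, was found in windows of GATA2, TAL1, GFI1B, KLF1 and CD34. The windows of KLF1, TAL1 and LYL1 are shown 5′ to 3′ on the strand of the gene because they hold the letters that the GATA factors of the group are known to read, with the GATA words, here all in reverse complement, in capitals. Their positions are chr19:12887152-12887451 for KLF1, chr1:47232286-47232585 for TAL1 and chr19:13102809-13103108 for LYL1, all on the minus strand.
KLF1: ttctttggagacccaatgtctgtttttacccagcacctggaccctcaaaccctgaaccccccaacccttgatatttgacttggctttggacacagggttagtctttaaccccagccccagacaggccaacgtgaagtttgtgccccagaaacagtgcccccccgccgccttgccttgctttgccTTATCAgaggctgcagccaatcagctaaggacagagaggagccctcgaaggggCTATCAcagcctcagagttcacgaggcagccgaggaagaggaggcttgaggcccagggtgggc
TAL1: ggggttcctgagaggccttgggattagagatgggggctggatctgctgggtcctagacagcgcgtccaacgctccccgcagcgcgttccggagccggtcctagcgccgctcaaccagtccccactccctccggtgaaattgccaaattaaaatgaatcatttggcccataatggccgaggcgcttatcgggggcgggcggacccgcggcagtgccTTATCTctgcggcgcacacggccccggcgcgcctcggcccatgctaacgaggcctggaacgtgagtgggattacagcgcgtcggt
LYL1: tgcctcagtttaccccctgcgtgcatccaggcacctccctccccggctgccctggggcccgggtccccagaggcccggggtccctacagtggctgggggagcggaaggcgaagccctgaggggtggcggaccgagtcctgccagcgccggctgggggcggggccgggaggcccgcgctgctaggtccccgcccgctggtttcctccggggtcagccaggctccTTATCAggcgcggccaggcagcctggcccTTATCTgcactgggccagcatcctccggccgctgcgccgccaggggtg
The words started 66 and 13 bases before the start of transcription in KLF1, 35 bases before it in TAL1, and 27 bases before it and at base 3 of the transcript in LYL1. A match of letters is not evidence of binding, which was not measured.

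Libraries held 25063577 to 53291599 expected counts. CARM1 in hairpin 1 and hairpin 2 libraries was left at 42.1% ± 9.14 and 15.5% ± 0.457 of scramble in SKNO1, 19.0% ± 6.84 and 15.9% ± 4.2 in MOLM13, and 26.0% ± 1.25 and 12.6% ± 2.54 in MV411 (SD, n = 3 each). RUNX1T1, a part of the SKNO1 fusion, was at 56.8 to 113 CPM (counts scaled to library size, by TMM, to make libraries comparable) in SKNO1 libraries and at no more than 0.104 CPM elsewhere. No other pair of replicates was as close as scramble replicates 1 and 3 of SKNO1 (chi-square per gene 7.75, against 23.2 for the next pair), and both differed from scramble replicate 2. Monocyte markers set the lines apart: LYZ, a granule enzyme, was at 8.84 to 20.8 CPM in SKNO1, 474.0 to 4992 CPM in MOLM13 and 367 to 1496 CPM in MV411. Abundant structured RNAs such as 7SL and 7SK took 23.3% to 28.7% of counts in knockdown libraries of SKNO1, against 17.7% to 19.9% with scramble. Mitochondrial rRNA took 0.0524% to 0.429% of counts in SKNO1 libraries, against 22.9% to 31.5% in MOLM13 and 24.9% to 34.9% in MV411. In MV411 it took 31.1% to 34.9% with hairpin 1 and 29.4% to 33.2% with hairpin 2, against 24.9% to 27.8% with scramble. The part of these RNAs in the results was tested only by leaving them all out. PROM1, another stem cell marker, had no count in 8 of 9 libraries of every line. In bulk RNA, fewer cells of a kind and less RNA per cell cannot be told apart.

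Without CARM1 knockdown, the 3 lines shared high MYB and LMO2 and nearly no CD34, and were set apart by GATA2, TAL1, NFE2 and KLF1. SKNO1 was the only line of the 3 with more than traces of TAL1, and MV411 the only one with no more than traces of GATA2. Levels of different genes were compared as length-scaled CPM, that is, counts per kilobase of merged exon length brought to the same sum in each library. On that scale MYB led in the scramble libraries of every line, at 118 ± 33.1 in SKNO1, 99.1 ± 13.3 in MOLM13 and 94.8 ± 12.4 in MV411 (SD, n = 3 each), above 98.6%, 98.4% and 98.3% of expressed genes. LMO2 came next, at 31.2 ± 3.28, 28.3 ± 2.06 and 51.9 ± 3.98. With the longest transcript as length, LYL1 was at 57 in SKNO1, above LMO2 at 38.6, and at 30 in MOLM13 and 29 in MV411, below LMO2 at 35.5 and 65. In SKNO1, LYL1 (31.0 ± 9.92) followed and overlapped LMO2, then came GATA2 (16.5 ± 5.53), NFE2 (12.4 ± 3.96) and TAL1 (7.76 ± 1.1), whose ranges overlapped from each to the next. Below them in SKNO1 were KLF1 (1.53 ± 0.244), GATA1 (0.813 ± 0.406) and GFI1B (0.0421 ± 0.022), each apart from its neighbours. In MOLM13, LMO2, NFE2 (21.0 ± 9), LYL1 (16.1 ± 2.16) and GATA2 (12 ± 9.1) each overlapped the next, and GATA1 (0.335 ± 0.512), KLF1 (0.190 ± 0.0824), GFI1B and TAL1 lay far below. In MV411, LMO2, LYL1 (15.6 ± 4.43), NFE2 (1.5 ± 0.251) and KLF1 (0.612 ± 0.0882) were each apart, and TAL1, GATA1, GATA2 and GFI1B were at 0.0406 or less. CD34 came last in all 3 lines, at no more than 0.00216.

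**Figure D1:**
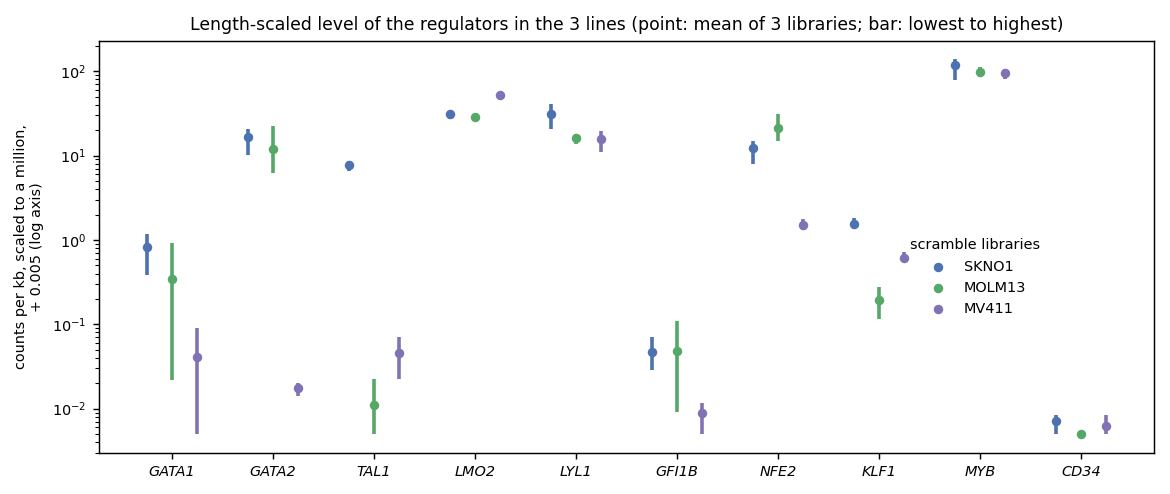
Length-scaled level of each regulator in the scramble libraries of SKNO1, MOLM13 and MV411, in length-scaled CPM, plus 0.005, on a log axis. Points are means of 3 libraries and bars run from the lowest to the highest. MYB tops all 3 lines, GATA2 drops to traces in MV411, and TAL1 does so in MOLM13 and MV411.

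The lines were compared in CPM over their scramble libraries, with edgeR's quasi-likelihood test and p-values adjusted over all genes tested. A gene was called past an adjusted p of 0.05. Of all genes tested, 56% were called between SKNO1 and MOLM13, 55.5% between SKNO1 and MV411 and 30.8% between MOLM13 and MV411. The filter on low counts kept 8 members, all but GFI1B and CD34, of which 4, 7 and 5 were called. With so many genes called, a member's call says little by itself, and the size of the difference is what is described here. Line and any handling that went with it, including whatever set the mitochondrial rRNA share of SKNO1 libraries below those of the other lines, cannot be told apart.

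GATA2 (chr3:128479427-128493185, minus strand), the GATA factor of stem cells, had 53.6, 34.6 and 61.2 CPM in SKNO1 scramble libraries, 87.7, 26.2 and 26.0 in MOLM13 and 0.0330, 0.0490 and 0.0529 in MV411. Those of MV411 rest on 5 counts in all. SKNO1 was above MV411 by 10.0 ± 0.75 on the log2 scale (fold change ± SE, adjusted p = 7.9e-07) and MOLM13 above MV411 by 9.90 ± 0.75 (adjusted p = 2.5e-06). Between SKNO1 and MOLM13 the log2 difference was 0.10 ± 0.41 (adjusted p = 0.85), and it was 0.94 (adjusted p = 0.0042) without MOLM13 scramble replicate 1, the library at 87.7 CPM. GATA1 (chrX:48786554-48794311, plus strand), which drives red cell and platelet maturation, was low everywhere, with 41, 20 and 57 counts in SKNO1, 46, 3 and 1 in MOLM13 and 0, 4 and 1 in MV411. Its CPM were 0.861, 0.432 and 1.17 in SKNO1, against 0, 0.0980 and 0.0265 in MV411 (log2 difference 4.10 ± 1.27, adjusted p = 0.017, but 0.051 and 0.063 without MV411 replicate 1 or 3). The same 1 library of MOLM13 held 46 of the 50 counts of that group, and without it SKNO1 was above MOLM13 by 3.98 (adjusted p = 0.0026), against 0.92 ± 0.93 (adjusted p = 0.42) with it. GFI1B (chr9:132944000-132991687, plus strand), a repressor needed in both lineages, had at most 21 counts in any scramble library, again in MOLM13 replicate 1.

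TAL1 (chr1:47216290-47232220, minus strand), the helix-loop-helix partner of the complex, had 32.2, 28.1 and 30.6 CPM in SKNO1, against 0, 0 and 0.0800 in MOLM13 and 0.297, 0.172 and 0.0794 in MV411. SKNO1 lay far above both other lines (log2 differences of 9.74 ± 0.5 and 7.42 ± 0.41, adjusted p = 3.6e-08 and 7.2e-08). MOLM13 rests on 4 counts, and with a library left out the first of these was 9.23 to 13.26. MOLM13 was called below MV411 by a log2 value of -2.32 ± 0.79 (adjusted p = 0.044), but their libraries overlapped and the call was lost in 4 of 6 fits with a library left out (-5.85 to -1.82, adjusted p up to 0.14). LYL1 (chr19:13099033-13103161, minus strand), its close relative, was instead expressed in all lines, with 64.6, 49.2 and 83.5 CPM in SKNO1, 37.3, 52.96 and 41.5 in MOLM13 and 27.3, 47.3 and 39.6 in MV411. SKNO1 was above MV411 by 0.80 ± 0.23 (adjusted p = 0.012, up to 0.052 with a library left out) and above MOLM13 by 0.60 ± 0.23 (adjusted p = 0.045), the second with overlapping libraries and lost in 4 of 6 fits with a library left out. LMO2 (chr11:33858576-33892289, minus strand), the bridge between the GATA and helix-loop-helix proteins, had 66.7, 64.7 and 68.7 CPM in SKNO1, 78.9, 76.9 and 73.7 in MOLM13 and 136, 113 and 133 in MV411. MV411 was thus highest, with log2 differences of -0.92 ± 0.12 for SKNO1 over MV411 (adjusted p = 4.4e-05) and -0.73 ± 0.12 for MOLM13 over MV411 (adjusted p = 0.00056).

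NFE2 (chr12:54292111-54301121, minus strand), the larger subunit of the factor that opens globin and platelet genes, followed another order. It had 23.4, 14.7 and 24.4 CPM in SKNO1, 67.6, 34.5 and 33.2 in MOLM13 and 2.77, 3.38 and 2.57 in MV411. All libraries of MV411 were below all others, with log2 differences of 2.85 ± 0.31 for SKNO1 and 3.95 ± 0.32 for MOLM13 (adjusted p = 1.5e-05 and 4.2e-06), and SKNO1 was below MOLM13 (-1.11 ± 0.28, adjusted p = 0.0058). KLF1 (chr19:12884422-12887199, minus strand), the erythroid Krüppel-like factor, was low in all lines but ordered without overlap, at 1.41, 1.77 and 1.91 CPM in SKNO1, 0.264, 0.420 and 0.140 in MOLM13 and 0.725, 0.882 and 0.715 in MV411. Its log2 differences were 2.67 ± 0.38 for SKNO1 over MOLM13, 1.14 ± 0.34 for SKNO1 over MV411 and -1.54 ± 0.39 for MOLM13 over MV411 (adjusted p = 0.00011, 0.015 and 0.011). The second of these was at an adjusted p of up to 0.053 with a library left out.

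MYB (chr6:135181315-135219173, plus strand) was not called between any lines: it had 498, 331 and 493 CPM in SKNO1, 487, 443 and 484 in MOLM13 and 469.6, 345 and 418 in MV411, with log2 differences of -0.09 to 0.20 and adjusted p of 0.44 or more. CD34 (chr1:207880972-207911402, minus strand) had 0, 1 and 1 counts in SKNO1 scramble libraries, none in MOLM13 and 0, 1 and 0 in MV411. For MOLM13, 0 counts in 3 libraries allows up to 0.0248 CPM, a limit that covers counting error only. The surface marker was therefore not detectable, or nearly so, in lines that transcribe MYB, LMO2 and, in SKNO1 and MOLM13, GATA2.

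**Figure D2:**
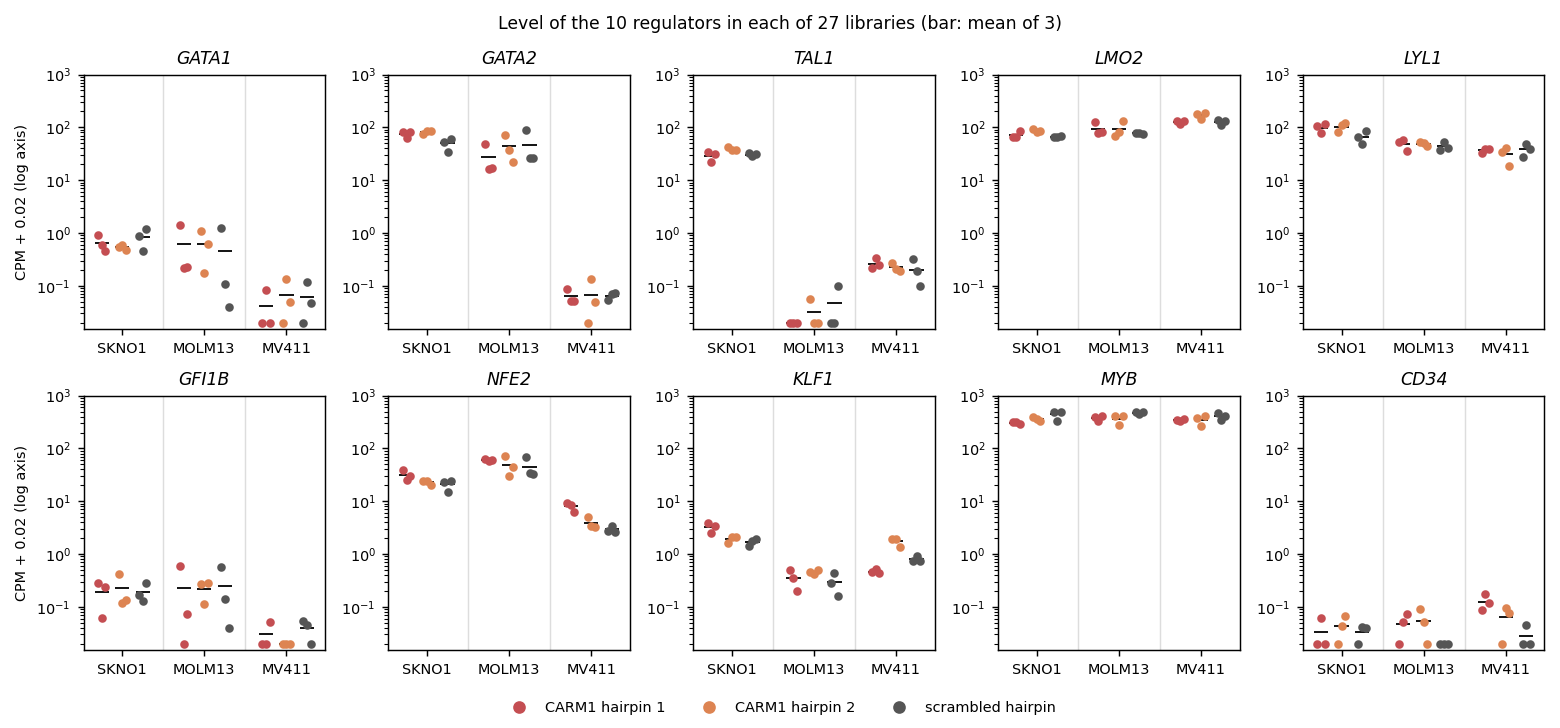
Level of each of the 10 regulators in every library, as CPM plus 0.02 on a log axis, with CARM1 hairpin 1, CARM1 hairpin 2 and scramble from left to right within each line and a bar at the mean of 3 libraries. MV411 lies far below the other lines in GATA2 and NFE2, SKNO1 lies far above them in TAL1, and replicate 1 of each MOLM13 group stands high in GATA1.

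After CARM1 knockdown few of these regulators passed the test. Of the members that could be tested, 3 were called in 1 comparison each: NFE2 rose with hairpin 1 and KLF1 with hairpin 2 in MV411, and GATA2 rose with hairpin 2 in SKNO1. None fell past the threshold, and none was called with both hairpins of a line or in 2 lines. These fits had no replicate block. With it, LMO2 of MV411 was called with hairpin 2 as well (0.43, adjusted p = 0.011). In SKNO1, 0 of 9 members were called with hairpin 1 and 1 of 9 with hairpin 2, where 0.532% and 11.2% of all genes were. In MOLM13 the counts were 0 of 7 and 0 of 7, where 6.38% and 9.42% of all genes were called. In MV411 they were 1 of 5 and 1 of 5, where 6.51% and 18.6% of all genes were called. With 5 to 9 members tested and at most 1 called, these counts do not set the members apart from other genes. In SKNO1 hairpin 1, where edgeR called none, GATA2, LYL1, NFE2, KLF1 and MYB had an unadjusted p under 0.05. So did 3124 of all 18430 genes tested there. In MOLM13 no member did, against 4025 and 4999 of 17732 genes with hairpins 1 and 2. DESeq2 called KLF1 in SKNO1 hairpin 1 (adjusted p = 0.015) and no member of MOLM13.

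**Figure D3:**
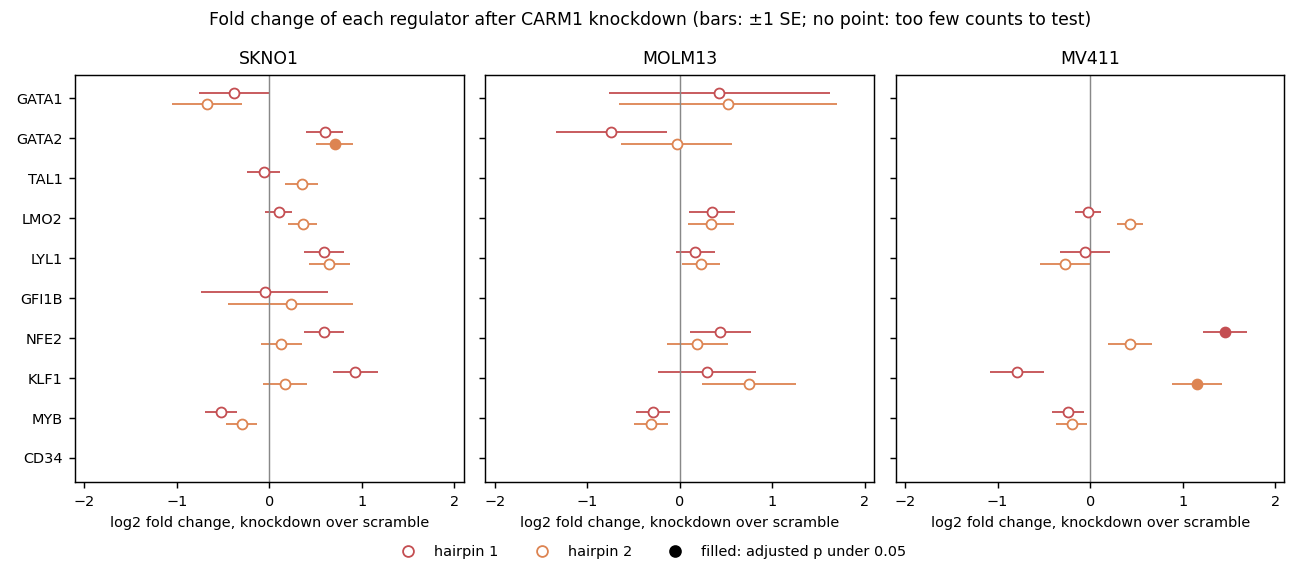
Log2 fold change of each regulator, CARM1 knockdown over scramble, in the 3 lines, with bars of 1 SE on each side and filled points for an adjusted p under 0.05. Filled points are NFE2 with hairpin 1 and KLF1 with hairpin 2 in MV411 and GATA2 with hairpin 2 in SKNO1, and MYB lies left of 0 in all 6 comparisons without a call.

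NFE2 in MV411 had 9.25, 8.55 and 6.20 CPM with hairpin 1 and 5.01, 3.42 and 3.19 with hairpin 2, against 2.77, 3.38 and 2.57 with scramble. Hairpin 1 libraries lay above all scramble libraries, whereas those of hairpin 2 overlapped them. The rise with hairpin 1 was 1.46 ± 0.24 on the log2 scale (adjusted p = 0.0061), and it was called in every alternative tried, with 1.35 to 1.62 when a library was left out. With hairpin 2 the log2 change was 0.43 ± 0.24 (adjusted p = 0.25). Hairpin 2 was lower than hairpin 1 by a tested difference of -1.02 ± 0.23 (adjusted p = 0.018, or 0.084 and 0.063 without hairpin 1 replicate 1 or 2), in a comparison where 11.5% of all genes were called. In SKNO1, NFE2 had 38.9, 24.8 and 29.7 CPM with hairpin 1 and 24.0, 24.2 and 20.4 with hairpin 2, against 23.4, 14.7 and 24.4 with scramble (0.59 ± 0.22 and 0.13 ± 0.22, adjusted p = 0.20 and 0.74). Every hairpin 1 library of SKNO1 was above every scramble library, without a call. In MOLM13 the values were 62.9, 56.7 and 60.2 CPM with hairpin 1 and 73.5, 30.4 and 44.4 with hairpin 2, against 67.6, 34.5 and 33.2 with scramble, all overlapping (0.44 ± 0.33 and 0.19 ± 0.33).

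KLF1 in MV411 moved to opposite sides of scramble with the 2 hairpins. It had 0.428, 0.494 and 0.418 CPM with hairpin 1 and 1.88, 1.88 and 1.37 with hairpin 2, against 0.725, 0.882 and 0.715 with scramble, from 13 to 53 counts per library. The 3 groups did not overlap. The rise with hairpin 2 was 1.16 ± 0.27 on the log2 scale (adjusted p = 0.012, but 0.059 without hairpin 2 replicate 1 and 0.054 without scramble replicate 3), and the change with hairpin 1 was -0.79 ± 0.29 (adjusted p = 0.15). The difference of hairpin 2 over hairpin 1, 1.95 ± 0.29 (adjusted p = 0.002), held with each library left out (1.86 to 2.09). In SKNO1 the order of the hairpins was the other way round. KLF1 there had 3.89, 2.52 and 3.32 CPM with hairpin 1 and 1.59, 2.06 and 2.12 with hairpin 2, against 1.41, 1.77 and 1.91 with scramble. Every hairpin 1 library was above every other library of SKNO1, with a log2 change of 0.93 ± 0.24 (adjusted p = 0.096), against 0.17 ± 0.24 with hairpin 2 (adjusted p = 0.71). The difference of hairpin 2 over hairpin 1 in SKNO1 was -0.76 ± 0.24 (adjusted p = 0.065), in a comparison where 9.52% of all genes and 0 of 9 members were called. In MOLM13, with 7 to 18 counts per library, the log2 changes were 0.30 ± 0.53 and 0.75 ± 0.51 (adjusted p = 0.79 and 0.36). No gene of any kind was called between the hairpins of MOLM13 (0%, from 335 genes with an unadjusted p under 0.05, and also 0 by DESeq2), and no member was. CARM1 itself was lower with hairpin 2 than with hairpin 1 in MV411 (12.6% against 26.0% of scramble) and in SKNO1 (15.5% against 42.1%), and the part of this difference in the values of NFE2 and KLF1 was not tested.

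**Figure D4:**
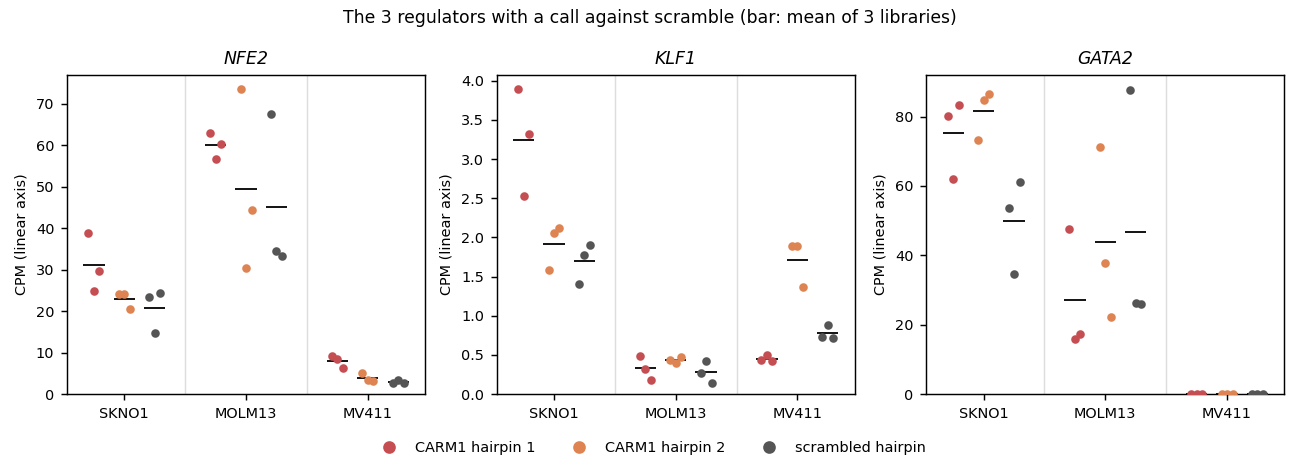
NFE2, KLF1 and GATA2 in CPM on linear axes from 0, with CARM1 hairpin 1, CARM1 hairpin 2 and scramble from left to right within each line and a bar at the mean of 3 libraries. KLF1 of MV411 lies below scramble with hairpin 1 and above it with hairpin 2, and GATA2 of SKNO1 lies above scramble with both hairpins.

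GATA2 in SKNO1 had 80.3, 62.0 and 83.3 CPM with hairpin 1 and 73.4, 84.7 and 86.4 with hairpin 2, against 53.6, 34.6 and 61.2 with scramble. Every knockdown library was above every scramble library with both hairpins. The log2 changes were 0.60 ± 0.20 (adjusted p = 0.16) with hairpin 1 and 0.71 ± 0.20 (adjusted p = 0.04) with hairpin 2, and the hairpins differed by 0.11 ± 0.20 (adjusted p = 0.80). The call with hairpin 2 was lost in 5 of 6 fits with a library left out, with adjusted p of up to 0.14. GATA2-AS1, an antisense RNA whose gene overlaps 3974 bases of GATA2 but none of its exon bases, had 8.68, 11.9 and 11.5 CPM with hairpin 2, against 6.64, 5.51 and 7.49 with scramble, and was called higher too (0.70 ± 0.20, adjusted p = 0.038). In MOLM13, GATA2 had 47.7, 16.0 and 17.3 CPM with hairpin 1 and 71.2, 37.9 and 22.1 with hairpin 2, against 87.7, 26.2 and 26.0 with scramble. Replicate 1 was the highest library of each MOLM13 group, and the log2 changes were -0.74 ± 0.6 and -0.03 ± 0.6 (adjusted p = 0.52 and 0.98). Without a filter on low counts the first of these was called (-0.78, adjusted p = 0.0069), and without replicate 1 in all 3 groups, an alternative added after seeing the data, it was -0.64 (adjusted p = 0.26). In MV411 no library had more than 3 counts of GATA2 and no change could be measured.

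GATA1 was not called in any line. In SKNO1 it had 0.876, 0.568 and 0.436 CPM with hairpin 1 and 0.522, 0.581 and 0.447 with hairpin 2, against 0.861, 0.432 and 1.17 with scramble, and its log2 changes were -0.38 ± 0.38 and -0.67 ± 0.38 (adjusted p = 0.66 and 0.30). In MOLM13 it had 34, 6 and 8 counts with hairpin 1 and 30, 5 and 23 with hairpin 2, against 46, 3 and 1 with scramble. Replicate 1 was thus the highest library of every MOLM13 group, and the log2 changes (0.43 ± 1.19 and 0.52 ± 1.18) were smaller than their errors. GFI1B had 0 to 17 counts in any knockdown library, and in SKNO1, where it could be tested, changed by -0.05 ± 0.69 and 0.23 ± 0.68.

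The helix-loop-helix factors and LMO2 had positive log2 changes with hairpin 2 in SKNO1, none of them called. LYL1 had 104, 77.7 and 115 CPM with hairpin 1 and 80.1, 111 and 119 with hairpin 2, against 64.6, 49.2 and 83.5 with scramble, overlapping in both comparisons (0.59 ± 0.22 and 0.65 ± 0.22, adjusted p = 0.20 and 0.077). DESeq2 called the second of these (adjusted p = 0.041). TAL1 had 33.6, 22.0 and 31.8 CPM with hairpin 1 and 42.2, 37.4 and 37.3 with hairpin 2, against 32.2, 28.1 and 30.6 with scramble (-0.06 ± 0.18 and 0.35 ± 0.18, adjusted p = 0.91 and 0.23). Every hairpin 2 library of TAL1 lay above every scramble library. An antisense gene shares 845 exon bases with TAL1, and the strand setting of the counting is not given in the sources used here. LMO2 had 65.4, 64.3 and 84.3 CPM with hairpin 1 and 91.5, 81.9 and 84.5 with hairpin 2, against 66.7, 64.7 and 68.7 with scramble, again with hairpin 2 above all of scramble (0.10 ± 0.15 and 0.36 ± 0.16, adjusted p = 0.81 and 0.16).

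In MV411, LMO2 had 129.8, 118 and 130.3 CPM with hairpin 1 and 178, 142 and 186 with hairpin 2, against 136, 113 and 133 with scramble. All libraries of hairpin 2 were above those of hairpin 1 and of scramble, and the log2 change with hairpin 2 was 0.43 ± 0.14 at an adjusted p of 0.054. In MV411 same-numbered replicates deviated together, and with the replicate number as a block this change was called (0.43, adjusted p = 0.011), as was the difference of hairpin 2 over hairpin 1 (0.44, adjusted p = 0.014 with the block and 0.063 without). DESeq2 called both as well (adjusted p = 0.044 and 0.041). With the block, 2250 genes in place of 1159 were called with hairpin 1 and 3516 in place of 2046 between the hairpins. Hairpin 1 left LMO2 at a log2 change of -0.02 ± 0.14. LYL1 of MV411 had 32.4, 38.1 and 38.9 CPM with hairpin 1 and 33.7, 40.7 and 18.4 with hairpin 2, against 27.3, 47.3 and 39.6 with scramble (-0.06 ± 0.27 and -0.27 ± 0.27). In MOLM13, LMO2 had 125, 78.2 and 81.3 CPM with hairpin 1 and 67.6, 82.1 and 129.8 with hairpin 2, against 78.9, 76.9 and 73.7 with scramble, and 1 knockdown library of each hairpin stood well above the rest (0.35 ± 0.25 and 0.34 ± 0.25, adjusted p = 0.45 and 0.41). TAL1 had at most 4 counts in MOLM13 and 10 in MV411 and could not be tested there.

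MYB was lower than scramble on average in all 6 comparisons, and called in none. In SKNO1 it had 314, 316 and 286 CPM with hairpin 1 and 389, 356 and 335 with hairpin 2, against 498, 331 and 493 with scramble (-0.52 ± 0.17 and -0.30 ± 0.17, adjusted p = 0.15 and 0.29). In MOLM13 it had 390.4, 338 and 406 CPM with hairpin 1 and 413, 279 and 406 with hairpin 2, against 487, 443 and 484 with scramble (-0.29 ± 0.18 and -0.31 ± 0.18, adjusted p = 0.38 and 0.28). Every knockdown library was below every scramble library with both hairpins of MOLM13 and with hairpin 1 of SKNO1. In MV411 it had 345, 335 and 364 CPM with hairpin 1 and 384, 269.7 and 405 with hairpin 2, against 469.6, 345 and 418 with scramble, which overlapped (-0.24 ± 0.17 and -0.20 ± 0.17, adjusted p = 0.50 and 0.49). Each knockdown library of MV411 was below its same-numbered scramble library, and with the block the adjusted p were 0.27 and 0.25. The hairpins of a line share their scramble libraries, so the 6 values are not independent. MYB-AS1, which shares 103 exon bases with MYB, had 1.11 to 5.67 CPM and was called in none of the 6 comparisons. Proliferation genes moved by more: of 20 listed, 19 fell with each hairpin in MOLM13 and in MV411, and 12 with hairpin 2 in SKNO1, but with hairpin 1 in SKNO1 edgeR called 0 and DESeq2 1. Of all genes, 4.25% and 6.03% fell with hairpins 1 and 2 in MOLM13. The shares were 4.13% and 10.2% in MV411, and 0.277% and 5.69% in SKNO1. In MOLM13 hairpin 1 the replication helicase gene MCM4 fell by 2.18 on the log2 scale (SE 0.16, adjusted p = 0.00059), and the median of the list was -1.98, beside 0.01 over all genes tested.

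CD34 had 0 to 5 counts in every library. In MV411 it had 2, 5 and 3 counts with hairpin 1 and 0, 2 and 2 with hairpin 2, against 0, 1 and 0 with scramble, too few to test.

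Whether a member's change differed between lines was tested by the interaction of line and hairpin, in a fit of all 27 libraries that kept 9 members. No member was called in any of the 6 tests. For GATA1 and GATA2 in MV411, and TAL1 and GFI1B outside SKNO1, counts were too few to test a change against scramble. Interactions with those lines therefore cannot decide for these members, as for GATA2 with hairpin 1 between SKNO1 and MV411 (0.70 ± 1.88). Among all genes, 4.56% were called for hairpin 1 between SKNO1 and MOLM13, 0.983% between SKNO1 and MV411 and 0% between MOLM13 and MV411, and for hairpin 2 the shares were 0.489%, 0.927% and 0.0705%. The member nearest to a call was KLF1 with hairpin 1, whose log2 change was higher in SKNO1 than in MV411 by 1.73 ± 0.44 (adjusted p = 0.059, unadjusted p = 0.00063). DESeq2 called this difference (1.72, adjusted p = 0.0094). For GATA2 with hairpin 1 the change in SKNO1 was above that in MOLM13 by 1.36 ± 0.6 (adjusted p = 0.22), and this was called without a filter on low counts (1.39, adjusted p = 0.00036). For NFE2 with hairpin 1 the changes in SKNO1 and MOLM13 were below that in MV411 by -0.87 ± 0.41 and -1.03 ± 0.41 (adjusted p = 0.37 and 0.65), so the rise in MV411 is not shown to be particular to that line.

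Genes that these regulators are known to act on or with were counted in lists. Of 27 partners of the TAL1 and GATA complexes, 9 rose and 0 fell with hairpin 2 in SKNO1, where 5.54% of all genes rose and 5.69% fell, with a list median of 0.33 beside 0.00 over all genes. They included LMO4, a relative of LMO2 (1.63 ± 0.15, adjusted p = 0.00013), the acetyltransferase EP300 (0.71 ± 0.15, adjusted p = 0.011), SSBP3, which stabilises the LMO-binding cofactor (0.79 ± 0.17, adjusted p = 0.012), and, in the transcript of the SKNO1 fusion, RUNX1T1 (0.61 ± 0.16, adjusted p = 0.031). With hairpin 1 in SKNO1, edgeR called 0 and DESeq2 1. Of 25 partners tested in MV411, 1 rose and 2 fell with hairpin 2, where 8.38% and 10.2% of all genes did. There SSBP2 rose (0.48 ± 0.13) and TCF3, the E-protein that pairs with TAL1 and LYL1, fell (-0.99 ± 0.22, adjusted p = 0.011), with FLI1 (-0.43 ± 0.13, adjusted p = 0.047). In MV411 no partner was called higher without the filter or with only the compared groups fitted, and the 2 called lower became 1 with RLE scaling or only the compared groups, 0 without hairpin 2 replicate 1, and 4 with the block. TCF3 fell in MOLM13 hairpin 2 as well (-0.81 ± 0.21, adjusted p = 0.036), with HDAC2 (-0.58 ± 0.14), but neither was called without replicate 1 of each MOLM13 group. They were 2 of 25 partners tested there, where 6.03% of all genes fell. With hairpin 1, edgeR called no partner in MOLM13 or MV411, and DESeq2 called 2 lower in MOLM13 and 0 in MV411.

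Of 32 erythroid genes, 9 to 12 passed the filter in a line. In SKNO1 hairpin 2, edgeR called 3 of 12 tested genes higher, among them ERMAP (0.97 ± 0.19) and HBB. Since the test of HBB is not used here, this count is not set against the 5.54% of all genes called higher. Called lower, where 5.69% of all genes were, were 2 genes. They were FECH, the last enzyme of haem synthesis (-0.90 ± 0.22), and the mitochondrial iron carrier SLC25A37 (-0.68 ± 0.17). FECH fell with both hairpins in MV411 too (-1.25 ± 0.14 and -0.81 ± 0.14, adjusted p = 0.0022 and 0.0027). HBB, the beta chain of adult haemoglobin, had a count in 17 of 18 knockdown libraries and in 0 of 9 scramble libraries. In SKNO1 it had 20, 19 and 24 counts with hairpin 1 and 33, 25 and 21 with hairpin 2, against 0, 0 and 0 with scramble. Since it passed the filter on low counts only through the knockdown libraries, its test is not used here, and DESeq2 called no erythroid gene higher with hairpin 1. The mean CPM of HBB in SKNO1 was 23.7-fold the limit of 3 counts over the scramble libraries with hairpin 1, and 29.8-fold with hairpin 2. These ratios take the knockdown mean as exact and leave out the spread of the knockdown libraries. In MOLM13 HBB had 2, 3 and 4 counts with hairpin 1 and 15, 1 and 3 with hairpin 2, against none with scramble (mean 3.79-fold and 8.71-fold the limit). In MV411 it had 14, 5 and 11 counts with hairpin 1 and 0, 1 and 2 with hairpin 2, against none with scramble (mean 11.7-fold and 1.15-fold the limit). These levels stayed under 1 CPM, since the highest library had 0.783. The erythroid genes HBA1 and ALAS2 stayed near 0 beside it: HBA1 was at or below 0.0526 CPM and ALAS2 at or below 0.206 CPM everywhere. KLF1, which activates HBB in red cells, was above scramble with hairpin 1 in SKNO1 and with hairpin 2 in MV411. It was below scramble with hairpin 1 in MV411, and its libraries overlapped scramble with hairpin 2 in SKNO1 and with both hairpins in MOLM13. A link between KLF1 and HBB was not tested.

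**Figure D5:**
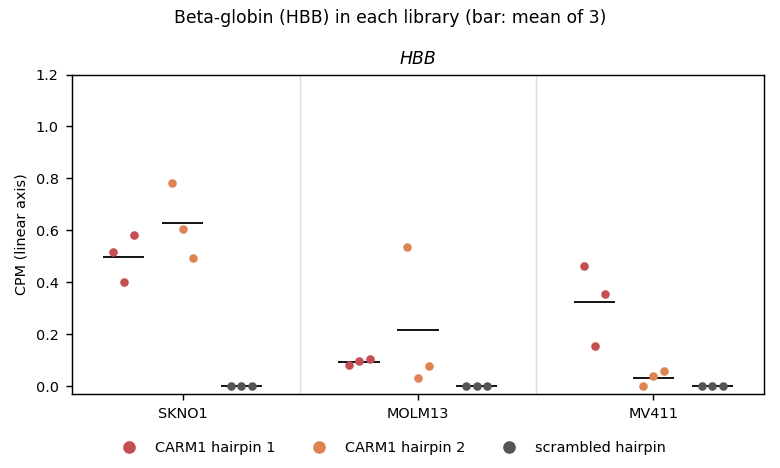
HBB in CPM on a linear axis, with CARM1 hairpin 1, CARM1 hairpin 2 and scramble from left to right within each line and a bar at the mean of 3 libraries. HBB is at 0 in all 9 scramble libraries and above 0 in 17 of 18 knockdown libraries.

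Of 21 megakaryocyte genes, ITGA2B, the platelet integrin, was at 54.4, 24.2 and 32.4 CPM with hairpin 1 and 35.6, 33.5 and 29.3 with hairpin 2, against 52.99, 19.8 and 59.2 with scramble, in SKNO1. It fell with hairpin 2 in MV411 (-1.43 ± 0.31, adjusted p = 0.0084), where it had 1.46, 1.77 and 1.96 CPM, against 5.04, 5.12 and 4.13 with scramble. Of the list, 13 genes were tested in MOLM13 and in MV411, and 11 in SKNO1. In MOLM13, 2 rose and 1 fell with hairpin 1, where 2.13% of all genes rose and 4.25% fell. With hairpin 2, 2 rose and 0 fell there, where 3.39% and 6.03% did. In MV411, 0 rose and 2 fell with hairpin 1, where 2.37% and 4.13% did. With hairpin 2, 3 rose and 1 fell there, where 8.38% and 10.2% did. In SKNO1, 0 were called with hairpin 1, where 0.532% of all genes were. With hairpin 2, 3 rose and 0 fell there, where 5.54% and 5.69% did. The genes that fell with hairpin 1 were NRGN in MOLM13 (-1.19 ± 0.31), which was not called with the block, without the filter or with any 1 library of the comparison left out, and NRGN (-2.72 ± 0.41) and the platelet glycoprotein GP9 (-1.93 ± 0.48) in MV411, where 1 gene in place of 2 was called with any 1 library left out. THBS1, a matrix and platelet granule protein, rose with both hairpins in MOLM13 (1.87 ± 0.38 and 2.58 ± 0.38) and with hairpin 2 in MV411 (3.57 ± 0.82) and SKNO1 (2.44 ± 0.42), and F13A1 rose with hairpin 2 in MV411 (2.20 ± 0.51) and SKNO1 (3.37 ± 0.45). With hairpin 2 in MOLM13 1 gene in place of 2 was called higher with RLE scaling, with only the compared groups or without replicate 1. THBS1 and F13A1 are also expressed by monocytes and macrophages. PF4, a defining platelet gene, had no count in any library. Of 22 stem and progenitor genes, 16, 15 and 13 were tested in MOLM13, MV411 and SKNO1. With hairpin 1 edgeR called none of them in any line, where 6.38%, 6.51% and 0.532% of all genes were called. In MV411, where the replicate numbers were taken as pairing the samples, the block gave 2 higher and 1 lower with hairpin 1. Without a filter on low counts 2 were called higher with hairpin 1 in MOLM13 and 1 each in MV411 and SKNO1, DESeq2 called 1 higher in SKNO1, and fitting only the compared groups gave 2 lower in MOLM13. With hairpin 2, 0 stem genes rose and 3 fell in MOLM13, where 3.39% and 6.03% of all genes did. In MV411, 1 rose and 3 fell, where 8.38% and 10.2% did, and in SKNO1 1 rose and 2 fell, where 5.54% and 5.69% did. KIT, the stem cell factor receptor, fell with hairpin 2 in SKNO1 (-0.64 ± 0.16, adjusted p = 0.027) to 188, 148 and 187 CPM, against 269, 263 and 278 with scramble, whereas ENG rose (1.2 ± 0.17, adjusted p = 0.0016). FLT3 and HOXA10 fell with hairpin 2 in MOLM13 (-0.96 ± 0.25 and -1.13 ± 0.27) and in MV411 (-0.69 ± 0.20 and -0.93 ± 0.16). Of the 3 stem genes called lower with hairpin 2 in MOLM13, none was called without replicate 1 of each group, and 1 gene was with the block or with only the compared groups fitted. In SKNO1 hairpin 2, 1 gene in place of 2 was called lower with RLE scaling or without the filter, and 0 with any 1 library of the comparison left out. Of 20 mature monocyte genes, 17 were tested in MOLM13, 15 in MV411 and 13 in SKNO1. In MOLM13, 3 rose with each hairpin, where 2.13% and 3.39% of all genes did. With hairpins 1 and 2, 4 and 10 rose in MV411, where 2.37% and 8.38% did, and 0 and 1 in SKNO1, where 0.255% and 5.54% did. The MOLM13 counts were 6 and 5 by DESeq2 and 14 and 13 without a filter on low counts, and the list's median log2 changes there were 1.27 and 1.15, beside 0.01 and 0.07 over all genes. The list's summed level in MV411 was 962 to 1248 CPM with hairpin 1 and 1391 to 1953 with hairpin 2, against 588 to 982 with scramble, and it ranged from 681 to 3798 among the MOLM13 scramble libraries. FCN1, a marker of that lineage, was at 0 in all SKNO1 libraries, but it was also at no more than 0.231 CPM in MV411. LYZ, of the same list, was at 8.84 to 20.8 CPM in SKNO1, so FCN1 does not stand for the list there. Of 16 lymphoid genes, only 6 were tested in each line, and at most 3 were called in a comparison of a hairpin with scramble. These 3 of 6 were higher in MV411 hairpin 2, where 8.38% of all genes were. The part of these cell type markers in the values of NFE2, KLF1 and GATA2 was not tested.

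For the 3 members called in a hairpin comparison, the genes of most similar level across all 27 libraries, after removing the mean of each line, were found among 10198 or 10199 genes. NFE2 was closest to HYAL3 (Pearson r = 0.858), F11R (0.833) and EPHX1 (0.829). KLF1 was closest to COTL1 (0.802), NDRG2 (0.759) and APOBR (0.758). GATA2 was closest to GDF11 (0.796), ABCC1 (0.767) and LAT (0.751). Within lines, HYAL3 followed NFE2 in all 3 (0.898 in SKNO1, 0.934 in MOLM13 and 0.887 in MV411), whereas GDF11 followed GATA2 in SKNO1 and MOLM13 (0.699 and 0.928) but not in MV411 (0.189), where GATA2 is at traces. These values describe libraries that share line, hairpin and depth. Among the members of SKNO1, GATA2 and LYL1 were the closest pair over its 9 libraries (r = 0.96), both lowest in scramble replicate 2.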

How the data were processed

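Ribosome-depleted, stranded RNA libraries of 27 samples were analysed as 9 groups of 3, by the labels. The submitters' processing notes name the tools STAR (2.5.3) and RSEM (version not given in the sources used here) and the genome build GRCh38.p7. The deposited table holds the authors' expected counts per gene, which need not be whole, and these were rounded. The strand setting of the counting is not given in the sources used here. Of 57992 gene identifiers, 57388 were found in GENCODE 29, which gave positions and lengths.

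Counts were tested with edgeR 4.0.16 (quasi-likelihood F-test, two-sided) in R 4.3.3, after its filter on low counts (minimum 10, total 15), TMM scaling and Benjamini-Hochberg adjustment over all genes tested, at 0.05. There were 18 comparisons: 6 of a hairpin with scramble and 3 between hairpins, each fitted on the 9 libraries of a line, 3 between lines on the scramble libraries, and 6 interactions on all 27 libraries. The SE is the log2 fold change divided by the root of F. CPM used TMM library sizes over 27 libraries. Gene similarity was measured on log2 CPM with a prior count of 2, among genes kept in all lines with a mean of at least 2. The procedure was tested on simulated data.

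The members and gene lists were chosen with earlier results of these data known. Named from a list were up to 3 called genes by smallest p in a comparison, and HBB, ITGA2B and KIT; the other genes named from lists were chosen after their values were seen. Alternatives were RLE scaling, no filter on low counts, removal of abundant structured RNAs, DESeq2 1.42.0, the replicate number as a block, fitting only the compared groups, leaving out each library, and the longest transcript as length. After seeing the data, leaving out replicate 1 of every MOLM13 group was added. Replicate numbers come from the labels, which do not say what they share. In MV411 all 9 pairs of same-numbered libraries deviated together (r of 0.165 to 0.792), so the numbers were taken as pairing those samples. A pair of different numbers there, hairpin 2 replicate 3 and scramble replicate 1, reached an r of 0.561, so the pairing is not certain. In the other lines the numbers were not taken as pairing. The main tests used no block in any line. Floors of 3 counts cover counting error only. Figures were drawn with matplotlib 3.10.9. Some genes that this rule names are not reported here.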

Additional observations from a re-analysis of the deposited data

Results flagged for a closer look

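KLF1 with hairpin 1 moved to opposite sides of scramble in SKNO1 and MV411. It had 3.89, 2.52 and 3.32 CPM with hairpin 1, against 1.41, 1.77 and 1.91 with scramble, in SKNO1, and 0.428, 0.494 and 0.418 CPM with hairpin 1, against 0.725, 0.882 and 0.715 with scramble, in MV411. Every library of hairpin 1 was above scramble in SKNO1 and below it in MV411. The difference between the log2 changes was 1.73 ± 0.44, which edgeR's test of the interaction did not call (adjusted p = 0.059) and DESeq2 called (adjusted p = 0.0094). When 1 library was left out, the difference was 1.57 to 1.88 with adjusted p of 0.041 to 0.19. Hairpin 1 left CARM1 at 42.1% of scramble in SKNO1 and at 26.0% in MV411, and the part of this in the result was not tested.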

How the results depend on the processing

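RLE scaling changed no count of called members or of all called genes by over 1.5 times, and 3 counts of gene lists became 1 in place of 2. Without a filter on low counts, members called became 1 for hairpin 1 in MOLM13, 2 for hairpin 2 in SKNO1 and 1 for the hairpin 1 interaction of SKNO1 with MOLM13. Genes called became 2185 and 2897 with hairpins 1 and 2 in MOLM13, 59 between them, 1913 with hairpin 1 in MV411 and 774 with hairpin 1 in SKNO1. In the interactions they became 645 (SKNO1 with MV411) and 285 (MOLM13 with MV411) for hairpin 1, and 636 (SKNO1 with MOLM13), 808 (SKNO1 with MV411) and 300 (MOLM13 with MV411) for hairpin 2.

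With DESeq2, members called became 1 for hairpin 1 and 2 for hairpin 2 in SKNO1, 1 between the SKNO1 hairpins, 2 for hairpin 2 in MV411 and 1 for the hairpin 1 interaction of SKNO1 with MV411. Genes called became 1925 and 2661 in MOLM13 and 927 with hairpin 1 in SKNO1, and in the interactions 1708, 685 and 32 for hairpin 1 and 441, 580 and 66 for hairpin 2. Without structured RNAs, 2 members were called with hairpin 2 in MV411 and 1 between the SKNO1 hairpins. Fitting only the compared groups gave 1722 genes with hairpin 1 in MOLM13, 2170 with hairpin 2 in MV411, and 7 and 3305 with hairpins 1 and 2 in SKNO1, where 2 members were called with hairpin 2.

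With the replicate block, 2 members were called with hairpin 2 in MV411, and 2250 genes with hairpin 1 and 3516 between the hairpins; LMO2 was the member gained with hairpin 2 and between hairpins, and the block changed no other call of a member in MV411. In SKNO1 and MOLM13 the samples share only a number (r of -0.22 to 0.594 and -0.359 to 0.467). There the block gave 458 genes with hairpin 1 and 2 members with hairpin 2 in SKNO1, and 0.07 for GATA2 with hairpin 2 in MOLM13. In the interactions it gave 1 member (GATA2, SKNO1 with MOLM13, hairpin 1), and 1 gene (MOLM13 with MV411, hairpin 1), 242, 482 and 28 genes (hairpin 2). Without replicate 1 of every MOLM13 group, added after seeing the data, 587 genes were called with hairpin 1, and 3 uncalled values changed sign: LYL1 to -0.02 and KLF1 to -0.10 with hairpin 1, and GATA2 to 0.26 with hairpin 2.

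Leaving out 1 library gave 335 to 910 and 441 to 1586 genes for hairpins 1 and 2 in MOLM13 and 0 to 1 between them. In MV411 it gave 341 to 1185 and 1716 to 3548 genes (0 to 2 members with hairpin 2), and 873 to 2105 genes and 1 to 3 members between hairpins. In SKNO1 it gave 3 to 411 and 559 to 1374 genes (0 to 1 members each), and 601 to 2045 genes and 0 to 1 members between hairpins. Between lines 3 to 5 members were called for SKNO1 with MOLM13, 5 to 7 for SKNO1 with MV411 and 4 to 7 for MOLM13 with MV411. The interactions gave 246 to 1160 genes (0 to 1 members), 45 to 319 (0 to 1 members) and 0 to 1 for hairpin 1, and 27 to 192, 78 to 227 and 1 to 44 for hairpin 2.

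Uncalled log2 changes that took both signs were, in MOLM13, GATA1 (-1.10 to 3.47), GATA2 (-1.48 to 0.09) and KLF1 (-0.09 to 0.71) with hairpin 1, and GATA1 (-0.16 to 3.55), GATA2 (-0.58 to 0.80) and NFE2 (-0.23 to 0.60) with hairpin 2. In MV411 hairpin 1 they were LMO2 (-0.11 to 0.04) and LYL1 (-0.25 to 0.11). In SKNO1 they were GFI1B (-0.51 to 0.44), LMO2 (-0.06 to 0.16) and TAL1 (-0.23 to 0.10) with hairpin 1, and GFI1B (-0.69 to 0.64) and NFE2 (-0.05 to 0.23) with hairpin 2. Between lines they were GATA2 (-0.20 to 0.94) and MYB (-0.18 to 0.07) for SKNO1 with MOLM13 and MYB (-0.02 to 0.28) for SKNO1 with MV411. With the longest transcript as length, 4 of 30 places in the order of levels changed. The cause was not tested for any of these. CD34 in all lines, GATA1 and GATA2 in MV411 and TAL1 and GFI1B outside SKNO1 had too few counts to test against scramble.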
